A study of Homo sapiens with 8 samples.

Results

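The construct effect shared by untreated and doxycycline-treated A172 cells was examined, that is, the genes whose signal differed between shHDAC2 and shControl cells in the same direction without and with doxycycline. A172 is an established human glioblastoma cell line. It had been infected with a lentivirus whose shRNA, directed at HDAC2 (shHDAC2) or a control sequence (shControl), is switched on by doxycycline, and selected with puromycin, so all 4 groups carry a virus and a selection marker. Each construct is represented by 1 stable line, and whether that line was a pool or a clone is not stated, so the shRNA and the line that carries it cannot be told apart. Each line was kept without doxycycline, DOX(-), or given doxycycline at 2.5 μg/ml and collected after 2 days, DOX(+). The labels give 2 biological replicates for each of the 4 groups, 8 arrays in all, and nothing says how far apart the cultures were kept, so the p-values measure only the spread between these arrays. Of 14884 genes with a transcript cluster of exactly 1 gene symbol, 8093 (54.4%) had a difference of the same sign in both comparisons, 3995 lower and 4098 higher in shHDAC2 cells, and 6791 had opposite signs.

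HDAC2 is a class I histone deacetylase, an enzyme that removes acetyl groups from histone tails and works within repressor complexes such as NuRD, Sin3 and CoREST. Loss of a deacetylase is best known for raising the transcription of genes it keeps silent, but these enzymes also act on non-histone proteins and are found at active genes. HMOX1 encodes heme oxygenase-1, which breaks down heme and is induced by oxidative stress through NRF2. A doxycycline-inducible shRNA is meant to be made only when doxycycline is present. The comparison without doxycycline sets the lines side by side where none was added, and whether some shRNA was made there was not tested.

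The arrays of shHDAC2 DOX(-) stood apart from the other 6. Across all clusters their Pearson correlation with those arrays was 0.9500 to 0.9538, whereas the other 6 correlated at 0.9820 to 0.9911 with each other. Signals are log2 values after quantile normalization, and array medians lay between 3.638 and 3.676. For the samples titled shControl DOX(+) and shHDAC2 DOX(-), 2 each, the source field names the opposite virus, while title and treatment field give the same group, and groups were taken from the titles. The 19 measured glial and glioma markers ranged in mean signal over the 8 arrays from 2.551 (AQP4) to 9.772 (VIM). Their average was 5.584 in shControl DOX(-), 5.652 in shControl DOX(+), 5.385 in shHDAC2 DOX(-) and 5.514 in shHDAC2 DOX(+). GFAP, the astrocyte filament, lay at 4.53 to 5.01. S100B lay at 2.58 to 3.26, below the median of all values of 3.658. NES, the progenitor filament nestin, lay at 7.89 and 7.89 in shControl DOX(-), 7.83 and 7.90 in shControl DOX(+), 5.42 and 5.77 in shHDAC2 DOX(-) and 7.37 and 7.57 in shHDAC2 DOX(+). Of the markers of other cell types, 0 of 4 measured for microglia and blood had the same sign in both comparisons, and their mean signal was 4.891, 4.996, 5.572 and 4.778 in the same order of groups. The endothelial and epithelial list averaged 4.662, 4.687, 4.109 and 4.562 over 9 measured genes, of which 0 were different in both comparisons. These averages hold members of high signal, with means over the 8 arrays of 8.838 for CD68 in the first list and 9.337 for KRT18 in the second. CD68 was called in both comparisons in opposite directions. The part of these differences in the results below was not tested.

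HDAC2 itself was lower in shHDAC2 cells in both states. Its log2 signal was 6.42 and 6.30 in shControl DOX(-), 6.14 and 6.15 in shControl DOX(+), 5.68 and 5.80 in shHDAC2 DOX(-), and 4.95 and 5.34 in shHDAC2 DOX(+). All 4 shHDAC2 arrays lay below all 4 shControl arrays, and the lowest were those with doxycycline. The difference was -0.62 ± 0.14 (SE) without doxycycline, 1.53-fold lower (limma adjusted p = 0.0101), and -1.0 with doxycycline, 2.0-fold lower (limma adjusted p = 0.00858). Doxycycline changed the construct difference by -0.38, which did not pass the limma test (adjusted p = 0.243). The call in both comparisons was lost without shControl DOX(-) replicate 1, shControl DOX(+) replicate 1, shControl DOX(+) replicate 2, shHDAC2 DOX(-) replicate 1 or shHDAC2 DOX(+) replicate 1, with limma adjusted p up to 0.0686 in these fits. A second HDAC2 cluster had a mean signal of 2.35 and differed by 0.10 and -0.01 in the comparisons without and with doxycycline, neither of which passed.

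HMOX1 had the largest shared rise when genes were ranked by the smaller of both differences. Its signal was 5.54 and 5.87 in shControl DOX(-), 5.83 and 5.65 in shControl DOX(+), 7.62 and 7.89 in shHDAC2 DOX(-), and 8.91 and 9.08 in shHDAC2 DOX(+). The shControl arrays overlapped with each other, and the shHDAC2 arrays lay above them in 2 steps, the higher with doxycycline. The difference was 2.05 ± 0.16 (SE) without doxycycline, 4.13-fold (limma adjusted p = 1.68e-05), and 3.26 with doxycycline, 9.58-fold (limma adjusted p = 8.43e-05), and it was larger with doxycycline by 1.21 (limma adjusted p = 0.00471). Leaving out any 1 array kept both calls.

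Genes were called different at a limma adjusted p under 0.05 over all clusters of exactly 1 symbol. Without doxycycline 4602 genes (30.9%) were called, 2077 higher (14%) and 2525 lower (17%) in shHDAC2 cells, and with doxycycline 570 (3.83%), 119 higher (0.8%) and 451 lower (3.03%). The comparisons share no array. In both, and in the same direction, 232 genes were called (1.56%), of which 202 were lower (1.36%) and 30 were higher (0.202%), so that 87.1% of the shared genes were lower. A further 124 genes (0.833%) were called in both in opposite directions, and the shared genes made up 65.2% of the 356 called in both. They were 40.7% of the genes called with doxycycline but 5.04% of those called without it. Among the other same-sign genes, 2398 were called only without doxycycline, 119 only with it, and 5344 in neither. Across all genes the differences in the 2 comparisons had a Pearson r of 0.116 and a Spearman rho of 0.13, over genes that are not independent and arrays normalized together.

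**Figure D1:**
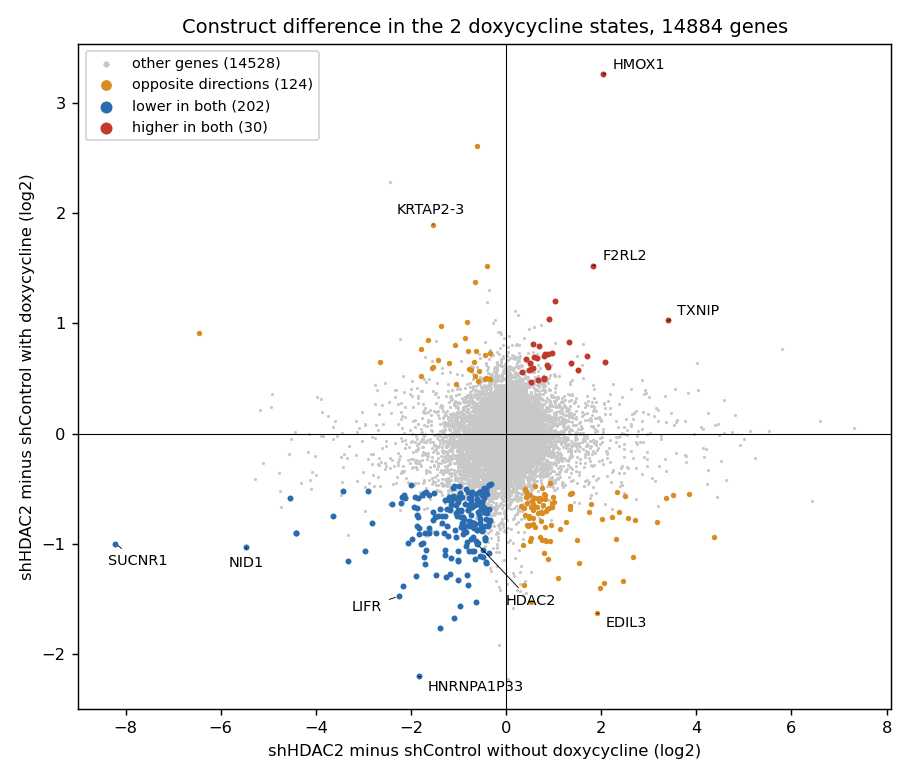
Difference between shHDAC2 and shControl without doxycycline (x axis, log2) against the same difference with doxycycline (y axis, log2), 1 point per gene, for 14884 genes. Blue points (202) were lower and red points (30) higher in both comparisons, orange points (124) were called in opposite directions, and most of the spread lies along the x axis.

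The shared genes lay above the typical signal. The median of their mean signal over the 8 arrays was 6.424 for the 202 lower genes and 6.409 for the 30 higher genes, against 4.778 for all genes. The lower genes had a median difference of -0.93 without and -0.75 with doxycycline and the higher genes 0.81 and 0.68, where all genes had 0.02 and -0.01. Both differences were at least 1 on the log2 scale in 22 lower and 4 higher genes. In 227 of the 232, all 4 shHDAC2 arrays lay on one side of all 4 shControl arrays (198 below, 29 above). Over all genes such separation was seen below in 1329 (8.93%) and above in 702 (4.72%), and the rule that chose the genes used the same values. SRPK2 was just inside the threshold (larger adjusted p 0.0497, differences -1.12 and -0.50) and KIF11 just outside (0.0502, -0.80 and -0.50).

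The number of shared genes depended on single arrays. It fell to 33 without shHDAC2 DOX(+) replicate 1, to 44 and 53 without shControl DOX(+) replicates 1 and 2, to 115 without shHDAC2 DOX(+) replicate 2, and to 137 and 143 without shControl DOX(-) replicates 1 and 2. It was 183 and 201 without shHDAC2 DOX(-) replicates 1 and 2. The comparison with doxycycline does not contain the shHDAC2 DOX(-) arrays other than in its variance, and without them it called 201 of the 232, which had been chosen on that comparison. Of 39 named genes called in both in the same direction, 11 kept the call whichever array was left out, namely HMOX1, F2RL2, TXNIP and STK40 among those higher, and LIFR, TMTC3, PGM2L1, JAKMIP2-AS1, STOM, FMR1 and TOP2A among those lower. The other 28 lost it without at least 1 array, 26 of them without shHDAC2 DOX(+) replicate 1.

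**Figure D2:**
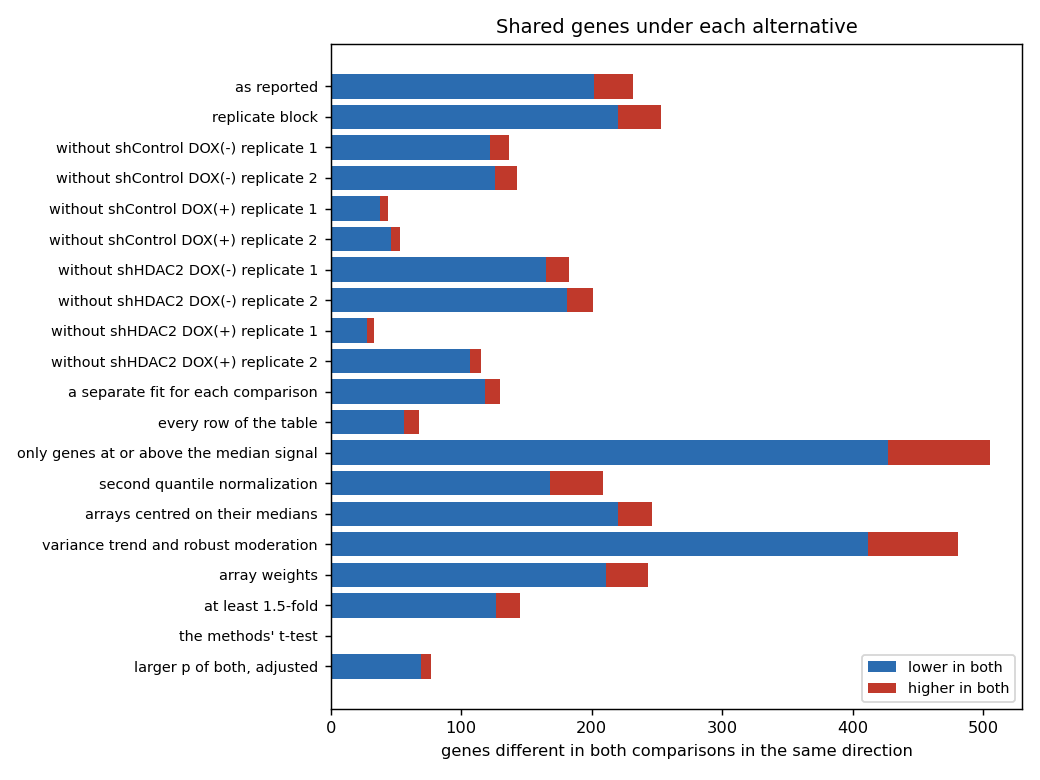
Number of genes different in both comparisons in the same direction (x axis) under each alternative, lower in blue and higher in red. The reported fit gave 232, removal of shHDAC2 DOX(+) replicate 1 gave 33, and restriction to genes at or above the median signal gave 505.

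By the same rank, the next shared rises were in F2RL2, TXNIP and ATF3. F2RL2 encodes the protease-activated receptor PAR3, a thrombin receptor. Its signal was 5.58 and 5.69 in shControl DOX(-), 5.33 and 5.38 in shControl DOX(+), 7.58 and 7.36 in shHDAC2 DOX(-), and 6.79 and 6.96 in shHDAC2 DOX(+). The groups of the 2 constructs did not overlap, with differences of 1.83 and 1.52, 3.56-fold and 2.87-fold (limma adjusted p = 7.81e-06 and 0.000724). TXNIP, the thioredoxin-binding protein that restrains glucose uptake, lay at 4.87 and 4.75, then 4.95 and 5.00 in the shControl groups, at 8.22 and 8.21 in shHDAC2 DOX(-) and at 6.06 and 5.94 in shHDAC2 DOX(+). It was thus highest in the shHDAC2 arrays without doxycycline, and its difference of 3.40 (10.6-fold) was 1.03 with doxycycline (2.04-fold), a change of -2.38 (limma adjusted p = 1.37e-05). A second TXNIP cluster of mean signal 3.394 differed by 2.72 and 0.26, and only the first of these passed (limma adjusted p = 5.81e-06 and 0.506).

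ATF3, a stress-induced transcription factor of the bZIP family, lay at 5.00 and 5.46, then 5.03 and 4.71 in the shControl groups, and at 6.31 and 6.19, then 6.05 and 6.10 in the shHDAC2 groups. The rise was 2.03-fold and 2.31-fold (limma adjusted p = 0.00165 and 0.00795). Of similar kind was MAMDC2, an extracellular matrix protein, at 1.87-fold and 2.05-fold, while STK40, a pseudokinase, was 2.51-fold and 1.78-fold higher. STXBP6, which binds SNARE proteins, rose 1.95-fold and 1.66-fold, and USP53, of the ubiquitin-specific protease family, 1.85-fold and 1.65-fold. DUSP5, a nuclear phosphatase of ERK, rose 1.77-fold and 1.65-fold, and its second cluster passed in the same direction (0.59 and 0.77). The ATF3 call was lost without shControl DOX(+) replicate 2 or shHDAC2 DOX(+) replicate 1, that of MAMDC2 without shControl DOX(+) replicate 1 or either shHDAC2 DOX(+) array, that of USP53 without any of the 4 DOX(+) arrays, and those of STXBP6 and DUSP5 without any 1 of 7 arrays each (all but shHDAC2 DOX(+) replicate 1 for STXBP6 and all but shControl DOX(+) replicate 2 for DUSP5). The DUSP5 call was also lost with the replicate number as a block.

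**Figure D3:**
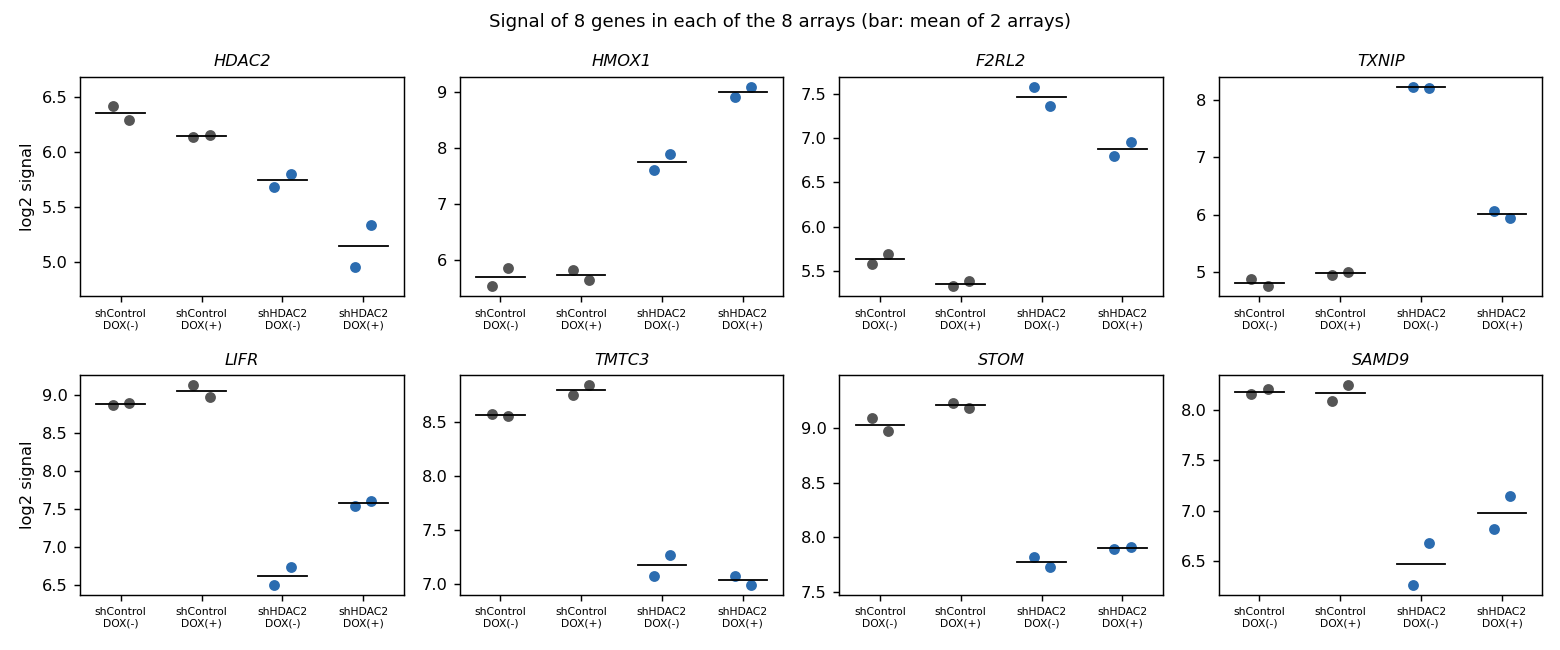
Log2 signal (y axis) of 8 genes in each array by group (x axis), with shControl in grey and shHDAC2 in blue; bars are means of 2 arrays. HDAC2, LIFR, TMTC3, STOM and SAMD9 lie lower and HMOX1, F2RL2 and TXNIP higher in every shHDAC2 array, and the panels have their own axes, which do not start at 0.

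Sequence upstream of F2RL2 is shown because it carries a match to the AP-1 motif, the site of the FOS, JUN and ATF family. The window, from RefSeq (GRCh38.p14), lies on the minus strand at chr5:76623354-76623653, from 250 bases before to 50 after the start site, with the motif TGANTCA in capitals.
F2RL2: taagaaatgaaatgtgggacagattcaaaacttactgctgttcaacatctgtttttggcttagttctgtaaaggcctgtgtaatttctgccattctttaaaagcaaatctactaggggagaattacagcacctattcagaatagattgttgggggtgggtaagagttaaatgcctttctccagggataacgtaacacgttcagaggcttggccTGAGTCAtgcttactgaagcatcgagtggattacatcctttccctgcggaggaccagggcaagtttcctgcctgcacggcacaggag
Windows were found for 24 of the 30 higher genes (30 windows), and 4 of these windows (13.3%) held TGANTCA on either strand, those of F2RL2, LINC00460, LOC100287834 and TRIML2. The share was 3.81% of 236 windows of 164 lower genes, 6.32% of the windows of genes tested and 7.71% of all 35116 windows. The motif was chosen after the values were seen, and a match is a string of letters, not a bound site.

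The 10 lowest genes by the same rank included LIFR, TMTC3, PGM2L1 and STOM, beside the pseudogene HNRNPA1P33. LIFR, the receptor chain for leukemia inhibitory factor, lay at 8.87 and 8.89 in shControl DOX(-), 9.12 and 8.98 in shControl DOX(+), 6.51 and 6.74 in shHDAC2 DOX(-), and 7.54 and 7.61 in shHDAC2 DOX(+). Each construct's arrays kept well clear of the other's, and the fall was 4.78-fold without and 2.78-fold with doxycycline (limma adjusted p = 1.82e-06 and 0.000724). OSMR, the oncostatin M receptor that also pairs with gp130, fell 1.59-fold and 1.76-fold (limma adjusted p = 0.00324 and 0.0109).

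TMTC3, an endoplasmic reticulum mannosyltransferase of cadherins, lay at 8.58, 8.56, 8.75 and 8.84 in the shControl arrays and at 7.07, 7.27, 7.07 and 6.99 in the shHDAC2 arrays. No array of either construct overlapped the other, and the fall was 2.63-fold and 3.40-fold (limma adjusted p = 2.63e-05 and 0.000301). Of 4 TMTC genes measured, TMTC1 (2.0-fold and 2.22-fold) and TMTC2 (1.46-fold and 1.75-fold) fell with it, a family picked out after the values were seen. Over all genes 1.36% were lower in both. STOM, the membrane protein stomatin, lay at 9.09, 8.97, 9.23 and 9.18 in shControl arrays and at 7.82, 7.73, 7.89 and 7.91 in shHDAC2 arrays. Its fall was 2.39-fold and 2.47-fold (limma adjusted p = 3.36e-05 and 0.000724).

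PGM2L1, which makes glucose 1,6-bisphosphate, lay at 6.23, 6.40, 6.34 and 6.40 in the shControl arrays, at 4.37 and 3.93 in shHDAC2 DOX(-) and at 4.89 and 5.09 in shHDAC2 DOX(+). The fall was 4.49-fold and 2.60-fold (limma adjusted p = 1.32e-05 and 0.00327). FMR1, the RNA-binding protein of fragile X syndrome, fell from 7.51, 7.53, 7.32 and 7.50 to 6.21, 6.48, 6.14 and 6.13, 2.26-fold and 2.42-fold (limma adjusted p = 0.000139 and 0.0019). PLXDC2, a membrane protein of the plexin domain family, lay at 8.04, 8.17, 8.62 and 8.62 in shControl, at 4.54 and 5.03 in shHDAC2 DOX(-) and at 7.45 and 7.47 in shHDAC2 DOX(+). Its 2 shHDAC2 groups were far apart, and the fall of 9.99-fold without doxycycline was 2.23-fold with it, a change of 2.16 on the log2 scale (limma adjusted p = 0.000219). The PLXDC2 call was lost without shHDAC2 DOX(+) replicate 1 or either shControl DOX(+) array. HNRNPA1P33 fell 3.58-fold and 4.61-fold, but it is a near copy of HNRNPA1, so its probes may read related transcripts, and its call was lost without shHDAC2 DOX(+) replicate 1.

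SAMD9, an interferon-induced antiviral factor, was the 1 gene of the interferon and RNA-sensing list that fell in both comparisons. It lay at 8.15 and 8.20 in shControl DOX(-), 8.08 and 8.24 in shControl DOX(+), 6.27 and 6.68 in shHDAC2 DOX(-), and 6.81 and 7.14 in shHDAC2 DOX(+). The fall was 3.26-fold and 2.27-fold (limma adjusted p = 7.25e-05 and 0.00795). Genes outside the list were named after their values were seen, and their calls were not followed with single arrays left out. The neighbouring paralog SAMD9L fell 3.33-fold and 2.17-fold (limma adjusted p = 5.25e-06 and 0.00166). ERAP2, a peptidase that trims antigens, fell 2.45-fold and 2.15-fold (limma adjusted p = 3.92e-05 and 0.002), STING1, a sensor adaptor of cytosolic DNA, 3.21-fold and 1.44-fold (limma adjusted p = 6.14e-06 and 0.0337), and IFITM1, an antiviral membrane protein with near copies, 1.61-fold and 1.56-fold (limma adjusted p = 0.00644 and 0.0492). Of the 23 measured members of the list, 16 had the same sign in both comparisons, against 54.4% of all genes. Without doxycycline 3 rose and 5 fell, where 14% and 17% of all genes did. With it 0 rose and 4 fell, where 0.8% and 3.03% did. In both comparisons 0 rose and 1 fell, where 0.202% and 1.36% of all genes did. The list medians were -0.20 and -0.26, against 0.02 and -0.01 for all genes. The SAMD9 call was lost without shControl DOX(+) replicate 2 or shHDAC2 DOX(+) replicate 1.

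The windows of SAMD9 and IFITM1 are shown because both hold a match to the interferon-stimulated response element. It was searched as 2 GAAA repeats with 2 bases between them on either strand, and matches are in capitals. The SAMD9 window (RefSeq, GRCh38.p14) lies on the minus strand at chr7:93117930-93118229 and that of IFITM1 on the plus strand at chr11:313790-314089.
SAMD9: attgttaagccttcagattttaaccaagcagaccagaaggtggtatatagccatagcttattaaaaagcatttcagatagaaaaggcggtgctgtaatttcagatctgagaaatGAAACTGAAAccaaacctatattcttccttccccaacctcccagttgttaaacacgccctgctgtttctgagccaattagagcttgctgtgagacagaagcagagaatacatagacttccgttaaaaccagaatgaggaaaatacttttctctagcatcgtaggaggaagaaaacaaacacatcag
IFITM1: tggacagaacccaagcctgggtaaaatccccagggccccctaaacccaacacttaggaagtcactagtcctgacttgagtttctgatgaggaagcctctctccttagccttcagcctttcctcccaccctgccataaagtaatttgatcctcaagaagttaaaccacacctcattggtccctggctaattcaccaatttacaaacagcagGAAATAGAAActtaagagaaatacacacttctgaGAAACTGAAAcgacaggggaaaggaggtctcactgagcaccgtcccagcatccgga
A match to this element was found in 15 of the 236 windows of lower genes (6.36%) and in 0 of the 30 windows of higher genes. The share was 3.57% of all windows and 2.98% of the windows of genes tested. The 15 windows belonged to 12 genes, ANXA2R, EHBP1, EPHA4, ERAP2, FMR1, IFITM1, SAMD9, SPMIP4, SRPK2, TCF4, TMPO and ZFP62, while the SAMD9L window held none. In all, 4 motifs were searched, and a match is a string of letters, not a bound site. The antioxidant response element, TGACNNNGC, to which NRF2 binds, was in 7.2% of the windows of lower genes, 13.3% of those of higher genes and 14.1% of those of genes tested (13.3% of all windows). HMOX1 had no window, so it is not in these shares. The TATA box, TATAAA, was in 5.93%, 6.67% and 8.57% (11.5% of all windows). The shares were not tested.

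Genes of mitosis and the kinetochore gave 3 shared falls. CDC25B, the phosphatase that activates CDK1, lay at 8.59, 8.55, 8.57 and 8.47 in the shControl arrays and at 7.68, 7.58, 7.71 and 7.71 in the shHDAC2 arrays, a fall of 1.91-fold and 1.76-fold (limma adjusted p = 0.000194 and 0.00624). TOP2A, the mitotic topoisomerase, lay at 9.54, 9.51, 9.49 and 9.50 in shControl, 8.95 and 9.01 in shHDAC2 DOX(-) and 8.30 and 8.48 in shHDAC2 DOX(+). Unlike most shared falls, that of TOP2A was larger with doxycycline, 1.46-fold against 2.16-fold, a change of -0.57 (limma adjusted p = 0.034). BUB1, a kinetochore checkpoint kinase, fell 1.42-fold and 1.53-fold (limma adjusted p = 0.00513 and 0.0156), a call lost without any of the 4 DOX(+) arrays, and CDC25B lost it without shControl DOX(+) replicate 1 or shHDAC2 DOX(+) replicate 1. Of 27 measured members of this list, 2 rose and 6 fell without doxycycline, where 14% and 17% of all genes did, and 0 rose and 6 fell with it, where 0.8% and 3.03% did. The same sign was seen in 20 of the 27, against 54.4% of all genes, and the medians were -0.11 and -0.33. Outside the list, and picked out after the values were seen, SMC2 and SMC4 of condensin and SMC5 and SMC6 of the repair complex fell, 4 of 7 SMC genes measured, from 1.37-fold (SMC4 without doxycycline) to 1.98-fold (SMC5 without doxycycline). Over all genes 1.36% were lower in both. Among other families looked up in the same way, 0 of 39 KIF, 11 of 491 ZNF and 4 of 31 CEP genes were lower in both. The counts were 3 of 16 for PCDHB, 4 of 14 for ANXA, 2 of 10 for FZD, 1 of 54 for USP and 0 of 24 for DUSP. LMNB1, a nuclear lamin, fell 1.62-fold and 1.92-fold (limma adjusted p = 0.00162 and 0.0042). In the DNA replication list 0 of 22 were called in both, where 1.56% of all genes were called in the same direction, EXO1 (-0.50 and -0.39) being the nearest.

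The shared genes of the matrix and the adhesion and guidance lists differed far more without doxycycline than with it. NID1, a basement membrane protein, lay at 9.27, 9.25, 9.37 and 9.47 in shControl, at 4.04 and 3.55 in shHDAC2 DOX(-) and at 8.30 and 8.47 in shHDAC2 DOX(+). The drop was 44.1-fold without and 2.04-fold with doxycycline (limma adjusted p = 6.67e-08 and 0.0116), a change of 4.43 (limma adjusted p = 3.53e-06). SLIT2, a secreted guidance cue, lay at 8.33, 8.27, 8.38 and 8.40, then at 3.77 and 3.74, then at 7.73 and 7.88, a fall of 23.4-fold and 1.5-fold (limma adjusted p = 2.99e-08 and 0.0224). UNC5C, a netrin receptor, fell 7.44-fold and 1.43-fold (limma adjusted p = 1.94e-07 and 0.0342), and EPHA4, an ephrin receptor, 4.33-fold and 1.5-fold (limma adjusted p = 2.41e-06 and 0.0313). The largest fall without doxycycline among the shared genes was in SUCNR1, the succinate receptor, at 8.22 on the log2 scale (298.0-fold), where it was 2.0-fold with doxycycline. The calls of NID1, SLIT2, UNC5C and EPHA4 were lost on removal of any 1 of 3, 4, 6 and 6 arrays respectively, both shControl DOX(+) arrays and shHDAC2 DOX(+) replicate 1 among them for each gene.

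Of 23 measured adhesion and axon guidance genes, 8 rose and 8 fell without doxycycline and 0 rose and 5 fell with it, with medians of 0.11 and -0.23, and 3 fell in both (EPHA4, SLIT2 and UNC5C). Of 16 measured extracellular matrix genes, 11 rose and 2 fell without doxycycline and 1 rose and 6 fell with it. Over all genes 14% rose and 17% fell without doxycycline, and 0.8% rose and 3.03% fell with it. Of all genes, 1.36% fell in both, 0.202% rose in both and 0.833% were called in opposite directions. In the matrix list 5 of 16 had the same sign, against 54.4% of all genes, NID1 fell and THBS1 rose in both, and 4 (MMP14, TIMP3, VCAN and LOX) were called in opposite directions. THBS1, the matrix glycoprotein thrombospondin 1, lay at 7.80 and 7.94, then 8.17 and 8.28 in shControl and at 9.87 and 10.03, then 8.79 and 8.96 in shHDAC2, a rise of 4.23-fold and 1.57-fold (limma adjusted p = 3.5e-06 and 0.024). Its call was lost without any of the 4 DOX(+) arrays.

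**Figure D4:**
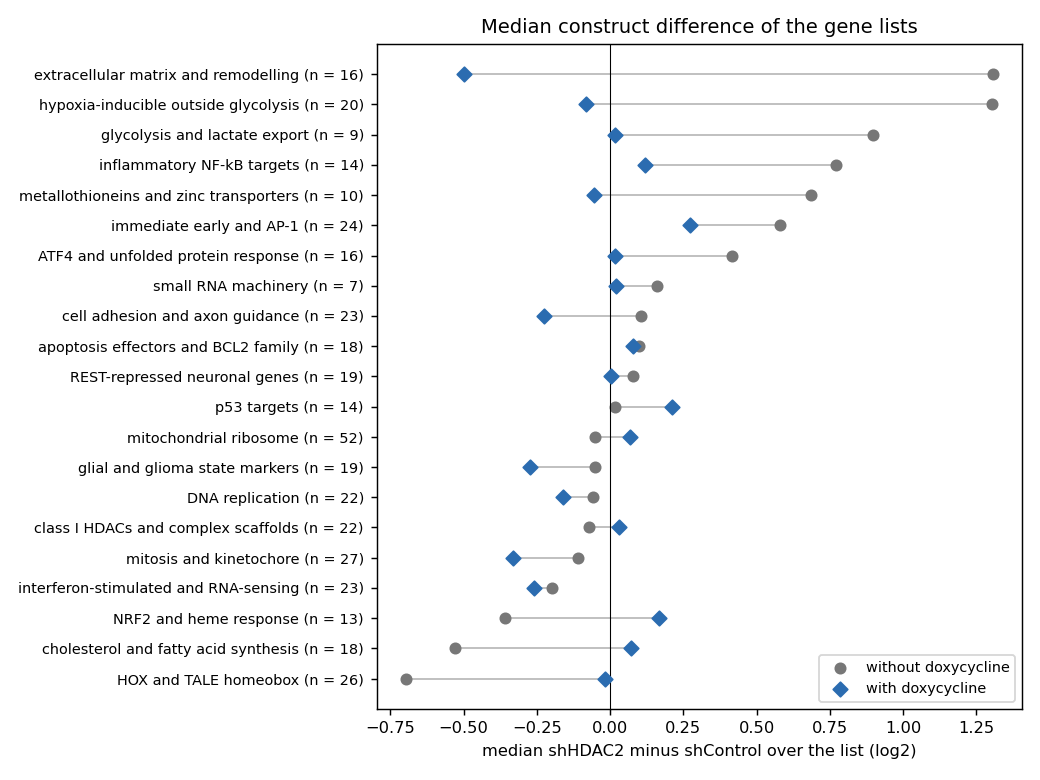
Median shHDAC2 minus shControl difference (x axis, log2) over the measured members of 21 gene lists (y axis), without doxycycline (grey circles) and with doxycycline (blue diamonds). The extracellular matrix list lies at 1.31 and -0.50 and the hypoxia list at 1.30 and -0.08, whereas the interferon list lies at -0.20 and -0.26.

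Of 19 measured glial and glioma markers, EGFR and CSPG4 fell in both states. EGFR, the growth factor receptor often altered in glioblastoma, lay at 9.27, 9.30, 9.22 and 9.33 in the shControl arrays and at 8.36, 8.51, 8.74 and 8.81 in the shHDAC2 arrays. The fall was 1.80-fold and 1.42-fold (limma adjusted p = 0.00046 and 0.0457), and it was lost without any 1 of the 8 arrays. CSPG4, the NG2 proteoglycan, fell 1.96-fold and 1.49-fold (limma adjusted p = 0.000244 and 0.0302), a call lost without either shControl DOX(-), either shControl DOX(+) or either shHDAC2 DOX(+) array. In this list 2 rose and 6 fell without doxycycline and 0 rose and 2 fell with it, 10 had the same sign, and the medians were -0.05 and -0.28. Over all genes 14% rose and 17% fell without doxycycline, 0.8% rose and 3.03% fell with it, and 54.4% had the same sign. Of all genes, 1.36% fell in both. KIT, a receptor tyrosine kinase, fell 1.95-fold and 2.96-fold (limma adjusted p = 0.00157 and 0.00195). MEIS1, a TALE homeobox factor, fell 2.3-fold and 1.52-fold (limma adjusted p = 0.000186 and 0.0493). It was 1 of 26 HOX and TALE genes called in both, against 1.56% of all genes called in the same direction. In that list 1 rose and 18 fell without doxycycline and 0 rose and 1 fell with it. The MEIS1 call was lost without the same 6 arrays as that of CSPG4.

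Targets of p53 gave 2 shared rises. AEN, an apoptosis-enhancing nuclease, lay at 6.51, 6.47, 6.37 and 6.18 in shControl and at 7.03, 6.95, 6.97 and 6.87 in shHDAC2, 1.42-fold and 1.56-fold higher (limma adjusted p = 0.00956 and 0.0205). TIGAR, a regulator of glycolysis, rose 1.41-fold and 1.49-fold (limma adjusted p = 0.0105 and 0.0295). Of 14 measured targets, 6 had the same sign, against 54.4% of all genes, and GDF15 was called in opposite directions. Without doxycycline 3 rose and 2 fell, where 14% and 17% of all genes did. With it 5 rose and 0 fell, where 0.8% and 3.03% did. In both comparisons 2 rose and 0 fell, where 0.202% and 1.36% did. The AEN call was lost without 6 and the TIGAR call without 7 of the 8 arrays, the 4 DOX(+) arrays among them in both genes. HMOX1 was the only 1 of 13 measured NRF2 and heme response genes called in both in the same direction. The same sign was seen in 4 of the 13, against 54.4% of all genes. In this list 1 rose and 6 fell without doxycycline, where 14% and 17% of all genes did. With it 4 rose and 0 fell, where 0.8% and 3.03% did. SRXN1, a sulfiredoxin of the same response, differed by -1.20 and 0.64 (limma adjusted p = 0.00026 and 0.0472). ATF3 was the only 1 of 16 ATF4 and unfolded protein response genes called in both in the same direction, and ATF3 and DUSP5 were 2 of 24 immediate early and AP-1 genes. Over all genes 1.56% were so called.

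Several lists with many calls without doxycycline held 0 genes called in both in the same direction. Only 1.56% of all genes were so called, so a count of 0 in a short list does not set it apart. In the glycolysis list 9 of 24 genes were measured, and SLC2A1 and SLC2A3 were not among them. HK2, the first enzyme of the path, lay 3.48 higher without doxycycline (limma adjusted p = 4.53e-07) and 0.19 with it (limma adjusted p = 0.587), and PGK1 differed by 1.28 and 0.23. In the hypoxia list 17 of 20 rose and 0 fell without doxycycline (14% and 17% of all genes), and 1 rose and 2 fell with it (0.8% and 3.03% of all genes), LOX and VEGFA being called in opposite directions, with STC2 at 4.04 and 0.39 and BNIP3 at 2.91 and 0.36. CXCL8 and CSF3, a neutrophil chemokine and a granulocyte growth factor, differed by 5.79 and 3.19 without and by 0.77 and 0.21 with doxycycline. The metallothionein MT1F lay 6.6 higher without doxycycline and 0.11 with it, and MT1M differed by 0.53 and 0.17. Falls confined to the first comparison at this threshold included KRT18 (-4.11 and -0.50), L1CAM (-4.07 and -0.35) and FADS2 (-1.24 and -0.16), whereas SQLE passed only with doxycycline (-0.31 and -0.68). The apoptosis genes PMAIP1 (1.35 and 0.47) and MCL1 (-0.59 and -0.29), the small RNA genes TNRC6C (-0.51 and -0.27) and TARBP2 (0.42 and 0.20), and SYT1 (-0.75 and -0.49), MCM10 (-0.45 and -0.30) and VWF (-0.15 and -0.22) likewise did not pass in both. In the mitochondrial ribosome list MRPL42 fell 2.01-fold and 1.62-fold (limma adjusted p = 0.000525 and 0.0284), 1 of 52 measured, and its call was lost without any of the 4 DOX(+) arrays.

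Among the genes called in opposite directions, EDIL3, an integrin-binding matrix protein, lay at 5.95, 6.01, 6.66 and 6.85 in shControl, at 7.86 and 7.91 in shHDAC2 DOX(-) and at 5.04 and 5.22 in shHDAC2 DOX(+). The shHDAC2 arrays thus lay above shControl without doxycycline and below it with doxycycline, by 1.90 and -1.63 (limma adjusted p = 5.32e-06 and 0.00055). CLMP (1.97 and -1.40) and VLDLR (2.05 and -1.35), a junction protein and a lipoprotein receptor, went the same way as 93 of the 124. In the other 31, KRTAP2-3 differed by -1.53 and 1.90, TSPAN8 by -1.38 and 0.98, and ANKRD1, a YAP target, by -6.45 and 0.92 (limma adjusted p = 2.98e-08 and 0.0128). The ANKRD1 call was lost without any 1 of the 4 DOX(+) arrays and that of TSPAN8 without any of these or either shControl DOX(-) array, while the other 4 named genes kept theirs whichever array was left out. The TSPAN8 call was also lost with the replicate block.

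The size of the shared differences was compared between states with the interaction term. It was called in 3017 of all genes (20.3%) and in 67 of the 232 shared genes, 58 of them smaller and 9 larger with doxycycline. By estimate alone 135 were smaller with doxycycline and 97 larger. The average of both differences was called in 3752 genes (25.2%), among them all 232 shared genes, but 3324 of the 3752 were not called with doxycycline and 917 had opposite signs, so the average alone does not mark a shared effect.

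The shared genes comprised 213 of 11915 protein-coding genes tested (1.79%), 10 of 1398 long noncoding RNAs (0.715%), 5 of 447 transcribed pseudogenes (1.12%) and 4 of 1072 microRNA genes (0.373%), against 1.56% of all genes. LINC00842 lay at 5.07, 4.69, 4.94 and 4.91 in shControl and at 3.07, 2.89, 3.89 and 3.38 in shHDAC2, a fall of 3.74-fold and 2.45-fold (limma adjusted p = 7.77e-05 and 0.00869). JAKMIP2-AS1 fell 2.76-fold and 2.44-fold (limma adjusted p = 6.94e-05 and 0.00266), beside its overlapping partner JAKMIP2 at 2.54-fold and 1.68-fold (limma adjusted p = 0.000257 and 0.0409). CASC15 fell 1.78-fold and 1.97-fold (limma adjusted p = 0.00805 and 0.0238), and LINC00460 rose 3.27-fold and 1.63-fold (limma adjusted p = 2.52e-05 and 0.029). The LINC00842 call was lost without either shControl DOX(+) array, that of LINC00460 without any DOX(+) array, and that of CASC15 without shControl DOX(-) replicate 2, either shControl DOX(+) array or shHDAC2 DOX(+) replicate 1.

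The mature sequences of the 4 microRNA genes are shown so that their seeds can be set side by side, with bases 2 to 8 in capitals, from RefSeq (GRCh38.p14). The array reads the region of the precursor, not the mature strand.
hsa-miR-3144-5p: aGGGGACCaaagagauauauag
hsa-miR-3144-3p: aUAUACCUguucggucucuuua
hsa-miR-3939: uACGCGCAgaccacaggauguc
hsa-miR-4692: uCAGGCAGuguggguaucagau
hsa-miR-320c: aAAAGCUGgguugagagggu
The 5 seeds differ from each other. MIR3144 lay at 3.24, 3.42, 3.70 and 3.10 in shControl and at 1.54, 1.71, 2.53 and 2.47 in shHDAC2, low signals throughout, a fall of 3.26-fold and 1.87-fold (limma adjusted p = 0.000137 and 0.032). MIR3939 fell 2.87-fold and 1.46-fold (limma adjusted p = 2.46e-05 and 0.0492), and MIR4692 rose 1.61-fold and 1.74-fold (limma adjusted p = 0.012 and 0.0343), with a second cluster (0.29 and 0.39) that did not pass. MIR320C2 rose 1.34-fold and 1.6-fold (limma adjusted p = 0.0158 and 0.0125). Calls were lost on removal of any 1 of 8 arrays for MIR3939, 6 for MIR4692 and 5 for MIR3144, each time with both shHDAC2 DOX(+) arrays among them. With the replicate number as a block, the calls of MIR3144 and MIR3939 were lost.

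Neighbours were taken from the RefSeq gene order. Of the lower genes, 16 were in 9 pairs of measured neighbours, such as SAMD9 with SAMD9L, SLIT2 with SLIT2-IT1, CEP290 with TMTC3, JAKMIP2-AS1 with JAKMIP2, and LINC00842 with HNRNPA1P33 and ANXA8L1. The higher genes held 0 such pairs. Chromosome 5 had the highest share of lower genes, 24 of 641 measured (3.74%), where the share over all genes was 1.36%. They included LIFR, OSMR, ERAP2, STING1 and the protocadherins PCDHB5, PCDHB7 and PCDHB14. The lowest share was on chromosome 22, where 0 of 340 were lower and 3 were higher in both. This order was seen after the values and was not tested. Near-identical copies (ANXA8 and ANXA8L1, C4A and C4B, RPL31 and the pseudogenes) are uncertain, since their probes can bind both copies.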

How the data were processed

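Total RNA of 8 cultures was hybridised to Affymetrix Human Gene 2.0 ST arrays (1 colour). The authors deposited log2 signals made with RMA (Affymetrix Expression Console), which corrects background and equalizes quantiles across arrays. Versions and the genome build were not given in the sources used here. RMA makes the arrays alike in distribution, so a shift of most transcripts would not be seen, and precision is limited by the small number of arrays.

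Of 53617 clusters, 16098 had exactly 1 gene symbol in the platform annotation, all matched by Entrez identifier, and 37519 were not named. For genes with more than 1 cluster that of highest mean was kept, which left 14884 genes. Means per group were fitted with limma 3.58.1 in R 4.3.3 over all 8 arrays (residual degrees of freedom 4, prior 4.83), with two-sided tests and Benjamini-Hochberg adjustment over the 16098 clusters, at 0.05. "Without" and "with doxycycline" name shHDAC2 minus shControl within each state. Named genes were HDAC2 and HMOX1, the 10 highest and 10 lowest by the smaller of both differences among shared genes whose arrays do not overlap, up to 3 shared members of each list (up to 2 given as values where a list had none), and the leading microRNA, long noncoding and opposite genes. Further genes were named after their values were seen, and whether their calls held with single arrays left out was not followed. The members, lists and motifs were chosen with earlier results of these data known. Promoter windows and microRNAs came from RefSeq by gene identifier. The steps were tested on simulated data. No batch is given in the labels or files. The alternatives comprised a replicate block, removal of each array in turn, other scalings, filters and moderation, a minimum of 1.5-fold, a fit without interaction, and the methods' t-test.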

Additional observations from a re-analysis of the deposited data

Results flagged for a closer look

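The construct difference changed with doxycycline, by the interaction term of the same limma fit, in 3017 genes, and the named genes among them are given as the difference with doxycycline minus that without. It was positive for HMOX1 (1.214), LIFR (0.782), PGM2L1 (0.786), PLXDC2 (2.161), NID1 (4.432), FADS2 (1.080), L1CAM (3.726), EPHA4 (1.530), SLIT2 (3.966), UNC5C (2.376), KRT18 (3.604), MIR3939 (0.976), KRTAP2-3 (3.431), TSPAN8 (2.355) and ANKRD1 (7.368). In these genes other than HMOX1, KRTAP2-3, TSPAN8 and ANKRD1 the estimated fall was smaller with doxycycline. It was negative for TXNIP (-2.376), STK40 (-0.499), LINC00460 (-1.006), PGK1 (-1.044), HK2 (-3.291), STC2 (-3.640), BNIP3 (-2.550), PMAIP1 (-0.880), CXCL8 (-5.025), CSF3 (-2.972), MT1F (-6.492), THBS1 (-1.433), TOP2A (-0.566), EDIL3 (-3.532), CLMP (-3.372) and VLDLR (-3.405).

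Outside the named genes, 31 of the 37519 clusters without exactly 1 symbol (0.0826%) differed in both comparisons in the same direction, 23 lower and 8 higher, in a fit of every row of the table, and 29 differed in opposite directions.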

How the results depend on the processing

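Leaving out 1 array gave 33 to 201 shared genes (28 to 181 lower, 5 to 20 higher), 22 to 102 opposite, 3378 to 4497 without and 94 to 526 with doxycycline, 2876 to 3341 for the average and 2182 to 2604 for the interaction. The other counts that moved by over 1.5 times were these. A separate fit for each comparison gave 130 shared (118 lower, 12 higher), 70 opposite and 329 with doxycycline. Every row of the table gave 68 (56 and 12), 50 opposite, 7636 without and 204 with doxycycline. Genes at or above the median signal gave 505 (427 and 78), 279 opposite and 1150 with doxycycline. A variance trend with robust moderation gave 481 (412 and 69), 263 opposite and 1108. A minimum of 1.5-fold gave 145 (127 and 18), 69 opposite and 1370 for the average. Adjusting the larger p of both comparisons gave 77 (69 and 8). Against all 4 shControl arrays, without the shHDAC2 DOX(-) arrays (chosen after seeing the data), 859 genes were called with doxycycline. A fit without interaction gave 547 for the construct, 455 lower and 92 higher, 223 of them shared (3621 before adjustment).

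With the methods' t-test there were 0 shared genes (0 lower, 0 higher), 0 opposite, 177 without, 0 with doxycycline and 91 for the average after adjustment, against 551 shared, 4222 without and 1860 with doxycycline at an unadjusted p under 0.05. With the replicate number as a block, 253 genes were shared (220 lower, 33 higher), 212 of them among the 232, and of the named genes DUSP5, MIR3144, MIR3939 and TSPAN8 lost the call. Deviations of same-numbered arrays correlated at -0.006 to 0.204, so the numbers were not taken to pair the arrays. Under a second quantile normalization 168 were lower and 41 higher. Of the named genes under these alternatives, 904 results kept their direction and side of the threshold, 245 lost the call and 11 gained it. The other 1, MT1M, which was not called, went from 0.17 to -0.04 with doxycycline without shControl DOX(+) replicate 1. The causes were not tested.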
